A study of Homo sapiens with 4 samples.

Results

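Carbonic anhydrases and the transporters of bicarbonate and protons were examined in FG-4592-treated HK2 cells as a set of 8 genes named by symbol: *CA9*, *CA12*, *CA4*, *CA2*, *CA13*, *SLC4A4*, *SLC4A7* and *SLC9A3*. All 8 were found by name in the RNA-seq tables, among 58243 genes there, of which 19658 were protein-coding genes that could also be placed on the genome build of the ChIP-seq peaks. HK2 is a line of human kidney cells, immortalized from the proximal tubule, and FG-4592 (roxadustat) is an inhibitor of the prolyl hydroxylases, so that HIFα proteins escape breakdown. Peaks of HIF1α from 2 ChIP-seq replicates and transcript levels from 2 RNA-seq libraries were used, and every library came from HK2 cells given 50 μM FG-4592 dissolved in DMSO. The methods of the study give 6 h of treatment. Untreated cells were not analysed here, so each value is a level under FG-4592 and no change was computed.

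Carbonic anhydrases interconvert CO2 and bicarbonate, which releases or takes up a proton. In the proximal tubule, protons leave the cell across the apical membrane through the sodium/proton exchanger NHE3, carbonic anhydrase on the membrane and in the cytosol keeps CO2 and bicarbonate in balance, and bicarbonate returns to the blood through the sodium bicarbonate cotransporter NBCe1. In hypoxic and glycolytic cells, carbonic anhydrase IX at the cell surface is a well known product of HIF1 activity.

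At the *CA9* promoter, a HIF1α peak lay over a match to the HIF motif. The replicate 1 list had a peak at chr9:35673752-35674086 (GRCh37), 335 bp wide, and the annotated start site of *CA9* at 35673925 lay inside it, 6 bp from its centre. The motif searched was the core of the hypoxia response element, ACGTG or GCGTG, on both strands. The peak held 1 match, ACGTG on the minus strand at chr9:35673907-35673911, which ended 14 bases before this start site and lay 10 bp from the centre of the peak. The annotation behind the transcript levels begins the main *CA9* transcript 72 bases further upstream, so that there the match lies within its first exon. The 250 bases before the *CA9* start are shown because the peak covers the part next to the start. They are from RefSeq (GRCh38.p14, chr9:35673678-35673927, plus strand), matched GRCh37 exactly at chr9:35673675-35673924, and have the reverse complement of the motif in capitals.
CA9 promoter: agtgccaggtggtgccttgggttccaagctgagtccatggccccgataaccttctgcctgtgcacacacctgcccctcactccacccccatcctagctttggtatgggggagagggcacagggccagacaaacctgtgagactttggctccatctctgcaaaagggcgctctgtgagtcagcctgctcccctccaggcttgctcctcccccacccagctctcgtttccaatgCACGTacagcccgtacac

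RefSeq promoters, from 250 bases before to 50 after a start, were found for 5 of the 8 genes: *CA9*, *CA12*, *SLC4A4*, *SLC4A7* and *SLC9A3*. Of 35116 such promoters of 300 bases, 48.4% held ACGTG or GCGTG and 21.4% held ACGTG. Among these 5 genes, ACGTG was found only in the *CA9* promoter, and the matches of the others were GCGTG. *SLC9A3* had 3 of these, and so did 1 of 2 *SLC4A7* promoters. *CA12* had 2, and 2 of 5 *SLC4A4* promoters had 1 each, both after the start. No peak of either replicate reached these other promoters. For comparison with *CA9*, the match nearest before the start is shown for each of *SLC4A7* (chr3:27484478-27484506, minus strand), *SLC9A3* (chr5:524550-524578, minus strand) and *CA12* (chr15:63382064-63382092, minus strand), in RefSeq GRCh38.p14 with 12 bases on each side and the match in capitals.
SLC4A7 promoter stretch: cggggcggggggGCGTGtcttgcctggcc
SLC9A3 promoter stretch: cgggcggggcggGCGTGccgggagctgcg
CA12 promoter stretch: gcggatctcaccCACGCctgccagcagct
The *SLC4A7* match began 110 bases before the RefSeq start, that of *SLC9A3* 117 bases and that of *CA12* 234 bases. ENST00000264938.7 of *SLC9A3* begins 117 bases downstream of the RefSeq start in the annotation behind the transcript levels, so there the match lies further from the start. In the annotation behind the transcript levels the *CA12* match lies in an exon of ENST00000178638.7, which begins 315 bases upstream of the RefSeq start. A match describes the letters of the sequence and is not a measured site.

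Levels are given as FPKM, fragments per kilobase of transcript scaled to the size of the library, summed over the annotated transcripts of a gene, so that genes can be compared per length. Of the 8 genes, 6 reached a mean FPKM of 1 or more, beside 59.7% of the 19658 protein-coding genes. Both libraries gave the same order: *CA9*, *SLC4A4*, *CA2*, *SLC4A7*, *CA12*, *CA13*, *SLC9A3* and *CA4*. The ranges of neighbours in this order did not overlap over the 2 libraries. Among the 6 genes that reached 1, the narrowest step was from *CA12*, with 3.04 FPKM in its lower library, to *CA13*, with 2.83 FPKM in its higher library, and the means of these genes differed by 0.716 FPKM against a pooled SD of 0.470. With the largest transcript of each gene in place of the sum, *SLC4A4*, with a mean of 6.64 FPKM, was below *CA2*, with 8.77, and *SLC4A7* had 2.42 in place of 5.76. *CA12* then had 2.01 in library 1 and 2.03 in library 2, and *CA13* 1.69 and 2.28, so their ranges overlapped and *CA13* was the higher in library 2. With 2 libraries the SD is imprecise, and no test was made. In bulk RNA, fewer expressing cells and less RNA per cell cannot be told apart.

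**Figure D1:**
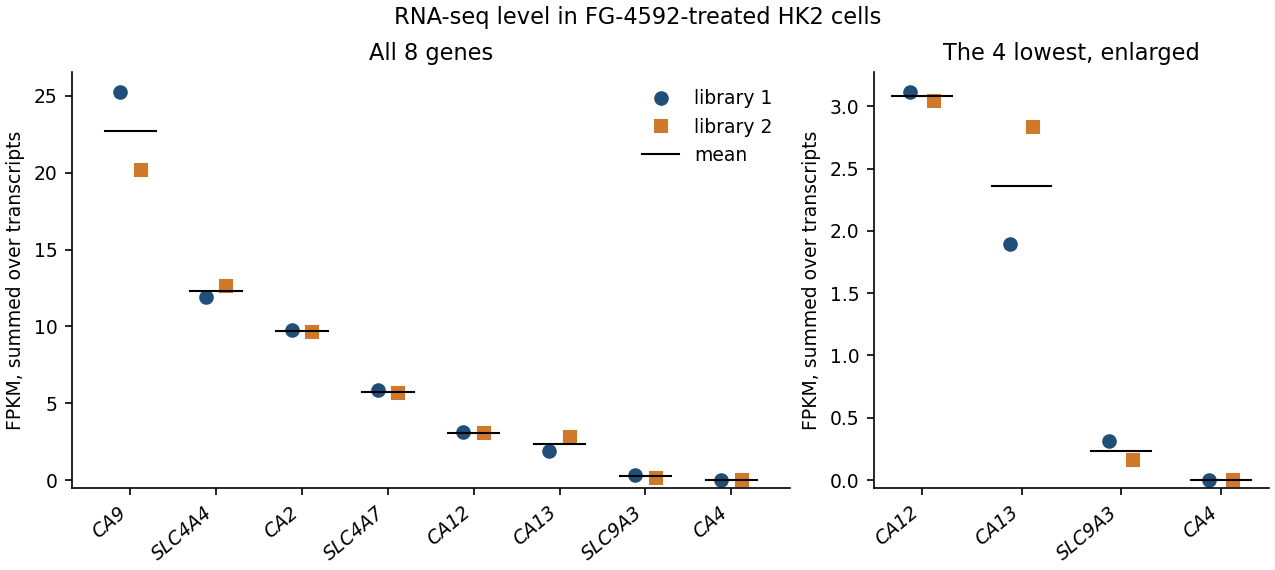
FPKM of each of the 8 genes in RNA-seq library 1 (circles) and library 2 (squares), with the mean of both as a line, and the 4 lowest genes enlarged on the right. *CA9* is highest at 25.3 and 20.2 FPKM, and *CA4* is listed at 0 in both libraries.

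Of the carbonic anhydrases that act outside the cell, *CA9* had the highest level of the set. Its FPKM was 25.3 in library 1 and 20.2 in library 2, a mean of 22.7 ± 3.62 (SD, n = 2), which placed it at rank 2931 of 19658 protein-coding genes. It was 1.85 times the mean of *SLC4A4*, the next gene. Transcript ENST00000378357.8 held 97.6% of the *CA9* level in library 1 and 99.6% in library 2. The log2 ratio of library 2 to library 1, with 1 added to each FPKM, was -0.31. Of 4376 protein-coding genes with a mean FPKM from 0.5 to 2 times that of *CA9*, 11.6% differed at least as much between the libraries.

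The lower *CA9* value in library 2 came with a difference in its first exon. That exon, 507 bases long, had a mean coverage of 135 in library 1 and 21.0 in library 2. The other 10 exons together had a coverage of 137 and 143. In bases, the first exon held 68.5 kb in library 1 and 10.6 kb in library 2, and the others 152 and 159 kb. With the first exon left out, which was tried after its coverage was seen, the level of this transcript went from 24.7 to 24.8 FPKM in library 1 and from 20.1 to 27.4 in library 2, and the order of the libraries was reversed. An exon of *ARHGEF39*, a gene on the opposite strand, covers all 507 bases of this exon. The *ARHGEF39* exon had a coverage of 4.28 and 4.04, or 8.81 and 8.31 kb, and the whole gene 1.71 and 1.62 FPKM. The use of strand in the estimates is not given in the sources used here, so reads of the 2 genes cannot be told apart in the shared bases. Of 8499 protein-coding genes whose main transcript had a first exon of at least 100 bases, 4.86% had a first exon whose share of coverage moved at least as far between the libraries in either direction. A cause was not tested.

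**Figure D2:**
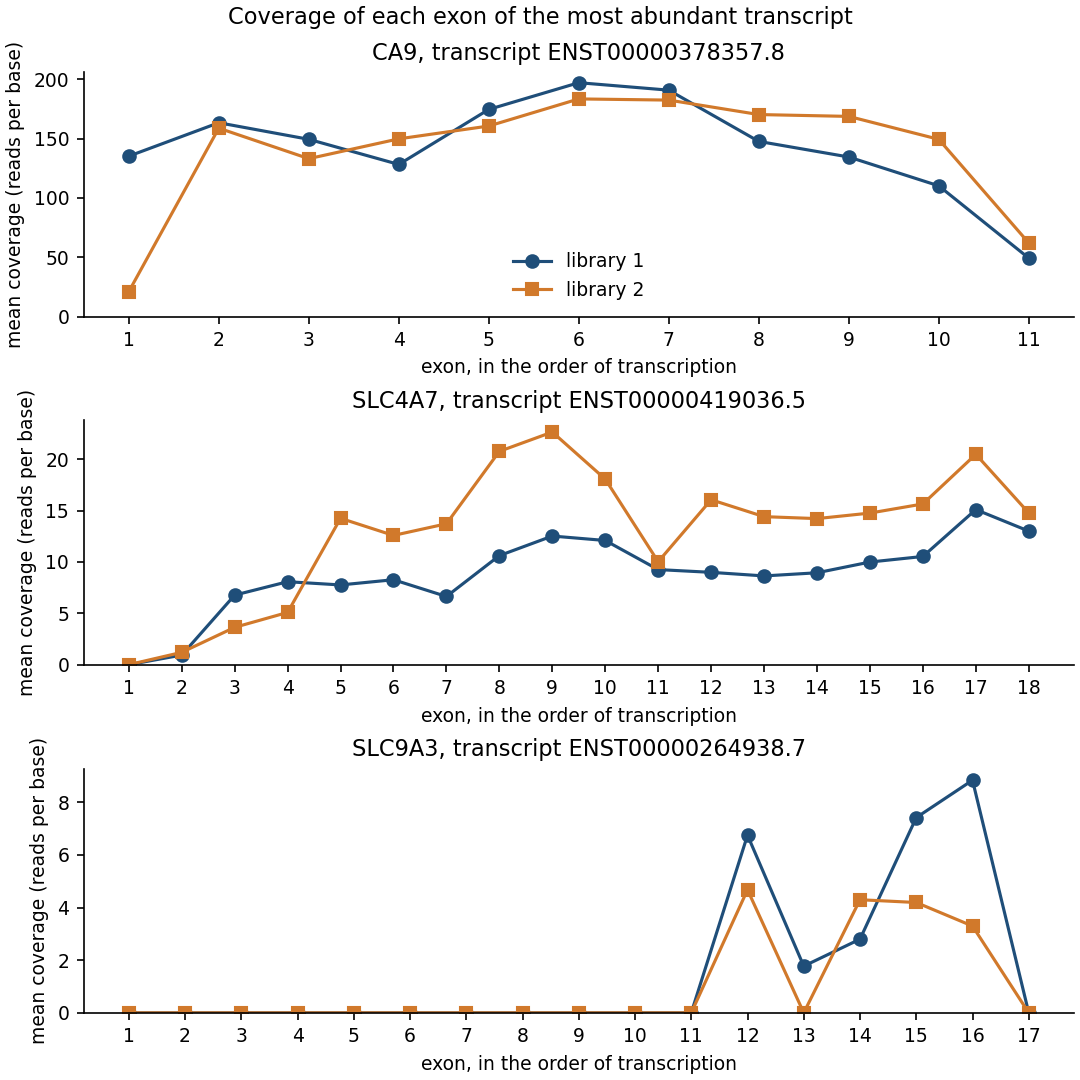
Mean coverage in reads per base (vertical) of each exon in the order of transcription (horizontal) for the most abundant transcript of *CA9*, *SLC4A7* and *SLC9A3*, in library 1 (circles) and library 2 (squares). The first exon of *CA9* differs between the libraries (135 and 21.0), the first exon of the *SLC4A7* transcript is at 0 in both, and coverage of *SLC9A3* lies in exons 12 to 16.

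*CA12* also encodes a surface enzyme that faces outward through a transmembrane segment. Its FPKM was 3.12 in library 1 and 3.04 in library 2, a mean of 3.08 ± 0.0529 (SD, n = 2). A pair of transcripts made up nearly all of it. ENST00000344366.7, of 10 exons, held 64.5% in library 1 and 66.8% in library 2, and ENST00000178638.7, of 11 exons, held 33.2% and 29.9%. The second includes an exon of 33 bases that the first skips, and that exon had a coverage of 4.30 in library 1 and 8.64 in library 2. The coverage of that exon differed more between the libraries than the shares of the transcripts did.

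*CA4*, whose enzyme is held to the apical membrane of proximal tubule cells by a lipid anchor, was listed at 0 in both libraries for each of its 6 transcripts. An exact 0 in such a table can also be an estimate that was not made. Thus, of the 3 genes for surface enzymes, *CA9* and *CA12* had a measured level and *CA4* did not.

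*CA2* encodes the abundant cytosolic enzyme that serves bicarbonate reclamation. Its FPKM was 9.75 in library 1 and 9.63 in library 2, a mean of 9.69 ± 0.0826 (SD, n = 2). Transcript ENST00000285379.9 held 89.2% and 91.8% of this. The first exon of this transcript, of 264 bases, had a coverage of 4.88 and 4.09, against 55.9 and 53.7 over its other exons together. The libraries were closer for *CA2* than for most genes of like level, since 93.4% of 5368 protein-coding genes from 0.5 to 2 times its mean differed at least as much.

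*CA13*, also a cytosolic enzyme, had 1.89 FPKM in library 1 and 2.83 in library 2, a mean of 2.36 ± 0.662 (SD, n = 2). Its log2 ratio of library 2 to library 1 was 0.40, and 10.3% of 2629 protein-coding genes of like level differed at least as much. ENST00000321764.3 held 89.1% of the level in library 1 and 80.5% in library 2, and ENST00000517831.5, which has no defined coding sequence, held 4.34% and 17.5%. *CA13* was higher in library 2 for both transcripts.

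*SLC4A4* encodes NBCe1, the cotransporter through which bicarbonate leaves the proximal tubule cell toward the blood. Its FPKM was 11.9 in library 1 and 12.7 in library 2, a mean of 12.3 ± 0.514 (SD, n = 2). The gene has several promoters, and transcripts that start at the internal one, 152296 bp downstream of the first start of the RNA-seq annotation, held 65.1% of the level in library 1 and 53.8% in library 2. Those that start within 1 kb of the first start held 30.2% and 40.7%. The internal start thus had the larger share in both libraries. ENST00000340595.3, from the internal start, had 7.50 and 5.77 FPKM, and ENST00000264485.10, from the first start, had 2.86 and 4.20 FPKM.

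The coverage of the first exons was in another order. The first exon of ENST00000264485.10, 645 bases long, had a coverage of 49.0 in library 1 and 50.1 in library 2. That of ENST00000340595.3, 453 bases long, had 21.4 and 4.88. The transcript with the larger FPKM therefore had the lower coverage over its first exon in both libraries, while the median over all its exons was 67.8 and 54.5. For ENST00000264485.10 that median was 13.0 and 23.7. Other transcripts of the gene share all 453 bases of the first exon of ENST00000340595.3, so its coverage there is its estimated part. Of the 645 bases of the first exon of ENST00000264485.10, 116 are shared. The cause of the difference in order was not tested.

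*SLC4A7* encodes NBCn1, an electroneutral cotransporter that brings sodium and bicarbonate into the cell. Its FPKM was 5.84 in library 1 and 5.69 in library 2, a mean of 5.76 ± 0.109 (SD, n = 2), of which protein-coding transcripts alone gave 3.83. The level was spread over 10 of 18 annotated transcripts. ENST00000419036.5 held the largest share, with 35.6% in library 1 and 48.4% in library 2, and starts within 1 kb of a site 59918 bp downstream of the first start. The 2 transcripts that start there together held 35.7% and 51.3%, and the 11 that start within 1 kb of the first start held 59.8% and 47.0%, so the order of these starts differed between the libraries. Its first exon, of 50 bases, had no coverage in either library, and its second exon had 0.933 and 1.20, against a median of 8.97 and 14.3 over its 18 exons. Another 4 transcripts, all starting near the first start, held 9.87% to 13.8% each. Of these, ENST00000437266.5 and ENST00000457377.5 are annotated as targets of nonsense-mediated decay, and ENST00000455077.5 and ENST00000437179.5 as protein-coding.

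*SLC9A3* encodes NHE3, the apical sodium/proton exchanger of the proximal tubule. Its FPKM was 0.310 in library 1 and 0.164 in library 2, a mean of 0.237 ± 0.103 (SD, n = 2), all from ENST00000264938.7. Of the 17 exons of this transcript, 12 were at 0 in both libraries, among them exons 1 to 11, and coverage lay in exons 12 to 16. Exon 16 had the highest in library 1, 8.84, and exon 12 in library 2, 4.67. The annotation of the RNA-seq tables places exons of *SLC9A3-AS1*, an antisense RNA, over all of exon 13, over 21 bases of exon 12 and 43 of exon 14, and none over exons 15 and 16. They also cover all of exons 10, 11 and 17, which were at 0 in both libraries. *SLC9A3-AS1* had 3.39 and 6.96 FPKM. *PP7080* and *EXOC3* also overlap *SLC9A3*, with 17.4 and 17.0 FPKM and with 11.5 and 17.3 FPKM. In the annotation of the RNA-seq tables, neither has an exon over any of the 17 exons of ENST00000264938.7. The value of *SLC9A3* therefore does not stand for its whole transcript, and the part of reads from these neighbours in it was not tested.

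**Figure D3:**
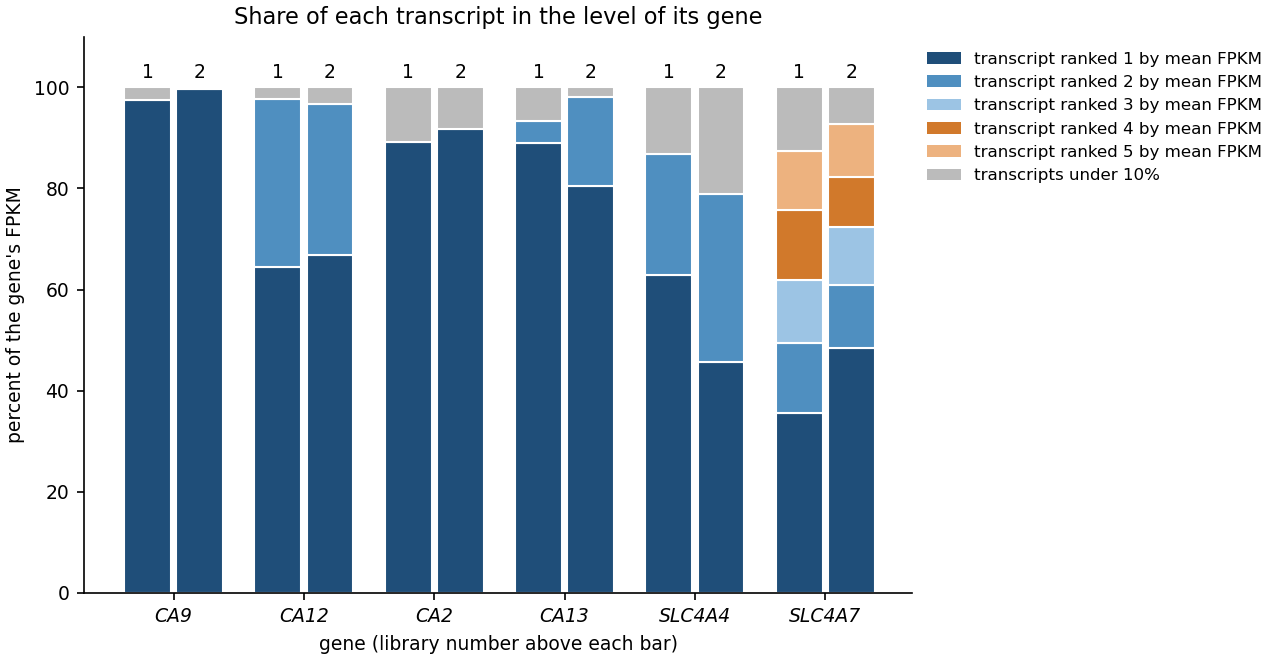
Share of the FPKM of each gene (vertical, percent) held by its transcripts in library 1 and library 2, for the 6 genes that reached a mean FPKM of 1. Coloured segments are transcripts with at least 10% of the mean level and grey is the rest, and *SLC4A4* and *SLC4A7* are split over more transcripts than *CA9*, where 1 transcript holds 97.6% and 99.6%.

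A promoter peak was a peak within 1 kb of any annotated start site of a gene. In replicate 1, with 1689 peaks, 1 of the 8 genes had one, *CA9*, beside 5.49% of all protein-coding genes and 8.60% of the 11726 that reached a mean FPKM of 1. In replicate 2, with 16953 peaks, none of the 8 had one, beside 14.0% of protein-coding genes. Thus none had a promoter peak in both replicates, beside 1.79%. With a window of 3 kb in place of 1 kb, 3 of the 8 had a replicate 2 peak, *CA9*, *SLC4A7* and *SLC9A3*, beside 22.9% of protein-coding genes, and 1, *CA9*, had one in each replicate, beside 2.66%. With 8 genes and shares of this size, the counts describe these genes and are no sign of a difference from other genes. *CA9* was at rank 359 by mean FPKM of the 1079 protein-coding genes with a replicate 1 promoter peak, whose median was 14.0 FPKM, and it was 1 of 670 whose peak covered a start site.

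The *CA9* peak was the only replicate 1 peak within 50 kb of any of the 8 genes, so that 1 of 8 had such a peak, beside 18.0% of protein-coding genes. For the other genes the nearest replicate 1 peak lay from 218952 bp (*SLC9A3*) to 2739312 bp (*CA12*) from a start site. In replicate 1, 89.3% of the peaks held ACGTG or GCGTG and 75.3% held ACGTG, as the *CA9* peak did. Annotated exons took up 83.3% of the bases of the *CA9* peak, most of them in *ARHGEF39*, whose exon lies across the *CA9* start. Of all replicate 1 peaks, 55.1% held an exon base, and the median share of bases in exons was 16.5%.

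Replicate 2 peaks lay within 50 kb of 4 of the 8 genes, beside 68.8% of protein-coding genes. These were 17 peaks, 6 near *CA9*, 8 at or near *SLC9A3*, 2 at *SLC4A7* and 1 near *CA4*. Exons were involved in nearly all, since 16 of the 17 held exon bases and 11 lay wholly in exons, where 83.5% and 65.6% of all replicate 2 peaks did. In 2 of the 17, most of these exon bases belonged to 1 of the 8 genes. ACGTG or GCGTG was in 11 of the 17, 7 at or near *SLC9A3* and 4 near *CA9*, beside 48.8% of all replicate 2 peaks. These shares make no allowance for width, and the widest of the 17 spanned 2708 bp against a median of 404 bp in replicate 2.

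Near *CA9*, the closest replicate 2 peak was chr9:35682064-35683664 (GRCh37). It lay 908 bp beyond the end of *CA9* and 1366 bp from the nearest start site, that of a short transcript near the 3′ end. Exons of *TPM2*, a tropomyosin gene on the opposite strand, took up most of its exon bases, and the nearest 4 of the 6 peaks lay on *TPM2*, which had 0.165 and 0.0609 FPKM. The other 2 lay on *TLN1*, the gene for talin, with a mean of 42.2 FPKM. No replicate 2 peak overlapped the replicate 1 peak at the *CA9* start.

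At *SLC9A3*, 5 replicate 2 peaks lay within the gene. The widest, chr5:475490-478197 (GRCh37), spanned 2708 bp and held 12 matches to ACGTG or GCGTG, and 56.6% of it was exon, mostly of *SLC9A3-AS1*. A peak at chr5:479042-479356 and another at chr5:479898-480763 were wholly exon, again mostly of *SLC9A3-AS1*, and the second lay 1996 bp from an internal start site, that of ENST00000507407, a retained-intron transcript listed at 0 in both libraries. From the first start of *SLC9A3*, the nearest replicate 2 peak was 35166 bp away. A peak at chr5:471278-471546 lay in exon sequence of *SLC9A3*. The remaining one, chr5:489134-489398, held no exon base and 4 ACGTG matches in 265 bp. Its centre was 6507 bp upstream of the nearest start site, again that of ENST00000507407. This peak is the one 35166 bp from the first start, and lies downstream of that start. It was the only one of the 17 peaks without exon bases.

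At *SLC4A7*, a replicate 2 peak at chr3:27416131-27416554 (GRCh37) lay in exon sequence of the gene, 16782 bp from its nearest start site. Another, chr3:27527774-27528087, lay 1863 bp upstream of a start site and wholly within *UBA52P4*, a ubiquitin pseudogene listed at 0 in both libraries. Neither held ACGTG or GCGTG. The peak near *CA4*, chr17:58179663-58180029, was 47274 bp away, in an exon of ENSG00000280852, and held neither.

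*SLC4A4*, *CA12*, *CA2* and *CA13* had no peak of either replicate within 50 kb. The nearest replicate 2 peak was 74757 bp from a start site for *SLC4A4*, 67624 bp for *CA12*, 179139 bp for *CA2* and 397695 bp for *CA13*. For *SLC4A4* that start is of ENST00000649996, which has no level here. From the starts of ENST00000264485 and ENST00000340595 the distance was 199349 and 351110 bp. For *CA12* the start is of ENST00000560666, at 0.0330 and 0.0965 FPKM. From those of its main transcripts, ENST00000344366 and ENST00000178638, it was 117646 and 117657 bp. *SLC4A4* and *CA2*, next to *CA9* by level, were thus without a peak within 50 kb. *SLC9A3*, with the most peaks within 50 kb, was among the lowest by level. Within 100 kb, *CA9* had 14 replicate 2 peaks, *SLC9A3* 11 and *SLC4A4* 4, so this contrast depends on the window. The 4 at *SLC4A4* were counted from the start of ENST00000649996, so for this gene it also depends on a start without a level here.

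**Figure D4:**
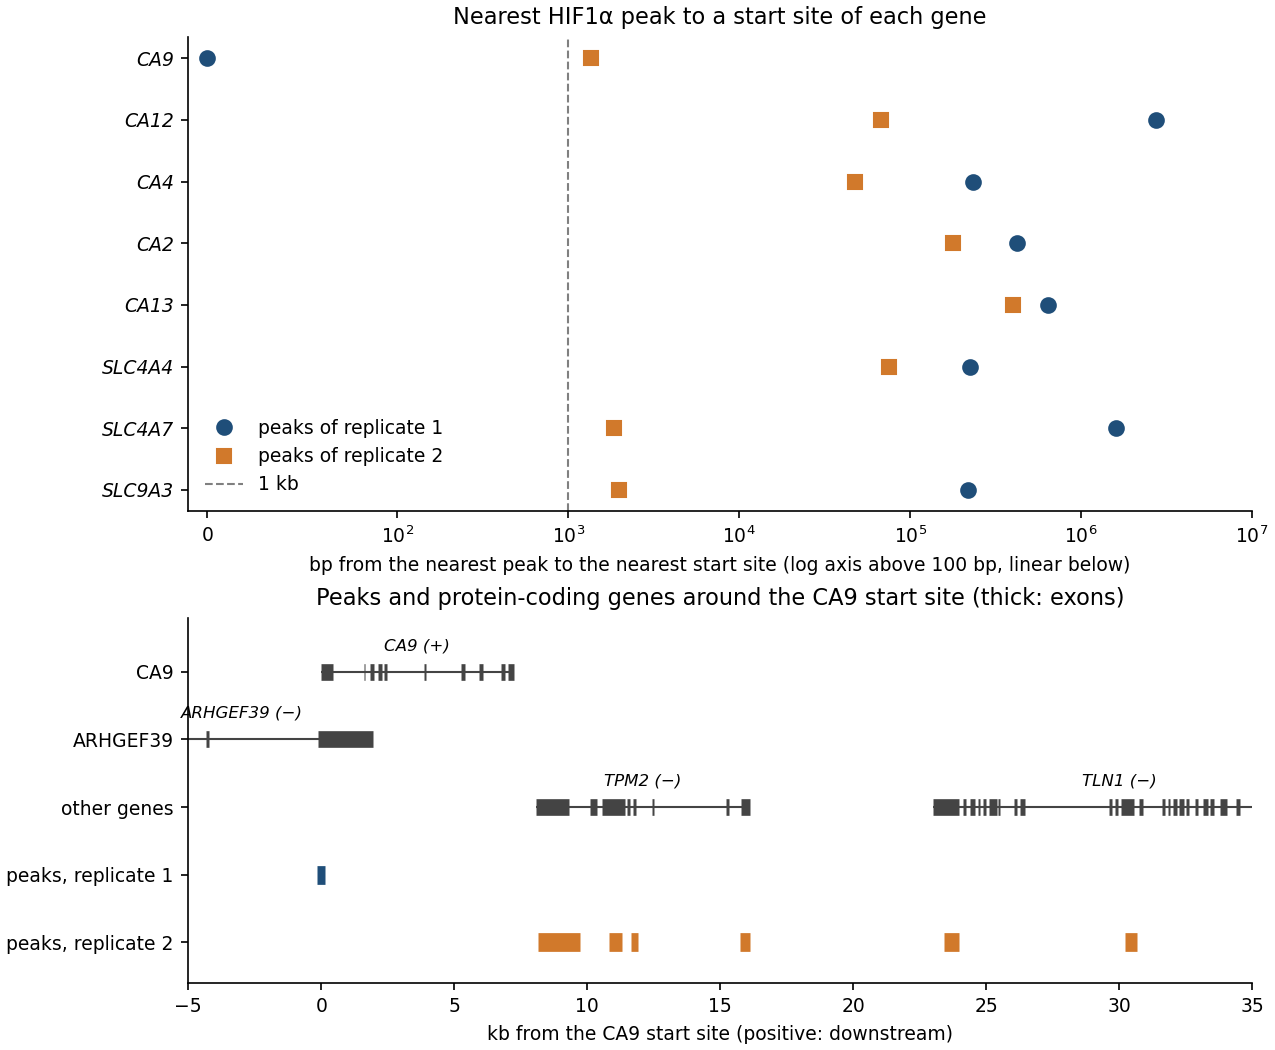
Upper panel, distance in bp (horizontal, logarithmic above 100 bp) from a start site of each gene to the nearest HIF1α peak of replicate 1 (circles) and replicate 2 (squares). Lower panel, peaks and protein-coding genes from 5 kb before to 35 kb after the *CA9* start site, with exons as thick bars. Only the replicate 1 peak at *CA9* is within 1 kb of a start site, and the replicate 2 peaks there lie on *TPM2* and *TLN1*.

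The other genes of these families were counted by list, to be read beside the 59.7% of protein-coding genes that reached a mean FPKM of 1, with a median of 3.37 FPKM over all of them, and the shares of them with a promoter peak, 5.49% for replicate 1, 14.0% for replicate 2 and 1.79% for the replicates jointly. Of 10 other carbonic anhydrases, 2 had a mean FPKM of at least 1 and 5 were listed at 0. The highest were *CA5B*, a mitochondrial enzyme, at 4.06 ± 0.412 FPKM, *CA11*, which encodes a related protein without enzyme activity, at 1.05 ± 0.155, and *CA3*, a muscle enzyme, at 0.409 ± 0.346 (SD, n = 2 for each mean here and below). *CA9* and *CA2* were therefore the highest among these 10 and the 5 of the set. None of the 10 had a promoter peak in either replicate.

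Of 8 other genes of the SLC4 family, 3 had a mean FPKM of at least 1. *SLC4A2*, a chloride/bicarbonate exchanger, was above *SLC4A4* at 36.9 ± 4.90 FPKM, and the next were *SLC4A3*, of the same kind, at 8.0 ± 0.707 and *SLC4A11* at 2.05 ± 0.0366. Among 17 other SLC9 exchangers and regulators, 10 were at or above 1. The highest were *EZR*, for the membrane linker ezrin, at 217 ± 1.44, *CHP1*, an exchanger cofactor, at 21.3 ± 0.0291, and *SLC9A3R1*, the scaffold NHERF1, at 19.0 ± 0.883. *SLC9A3R1* was thus well above *SLC9A3*, whose product it binds. In neither list was there a replicate 1 promoter peak. In replicate 2, 1 of the 8 had one, *SLC4A2*, and 2 of the 17, *SLC9A3R1* among them, beside 14.0% of protein-coding genes.

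Of 8 SLC26 anion exchangers, 4 reached 1, led by *SLC26A6* at 12.8 ± 0.416, *SLC26A2* at 8.95 ± 0.318 and *SLC26A11* at 8.11 ± 1.65 FPKM. None of the 8 had a promoter peak in replicate 1 and 1 had one in replicate 2, beside 14.0% of protein-coding genes. Of 5 genes of monocarboxylate transport, which carries lactate with protons, 4 reached 1. *BSG*, the chaperone basigin, was at 268 ± 10.3, *SLC16A3*, the lactate exporter MCT4, at 217 ± 5.71 and *SLC16A1* at 44.9 ± 2.37 FPKM. A replicate 2 promoter peak was at 2 of the 5, beside 14.0% of protein-coding genes. *SLC16A3* had a promoter peak in both replicates, the only gene to do so in the 7 lists of pH regulation, beside 1.79% of protein-coding genes. Its replicate 1 peak covered a start site and its replicate 2 peak lay 911 bp from one, so with a window of 0.5 kb none of the 75 genes of these lists had both, and with 3 kb 2 had, *SLC16A3* and *ATP6V0D1*.

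The V-ATPase, a proton pump of acidic compartments, had 19 of 24 subunit genes at or above 1 FPKM, with a median of 16.6, beside 59.7% and 3.37 FPKM over protein-coding genes. The highest were *ATP6V0C* at 83.0 ± 2.44, *ATP6V1F* at 67.9 ± 3.58 and *ATP6V1G1* at 61.6 ± 3.31 FPKM. *ATP6V0D1*, at 58.2 ± 5.69, was the only one with a promoter peak in replicate 1, 676 bp from a start site. In replicate 2, 4 of the 24 had one, beside 14.0% of protein-coding genes, and *ATP6V0D1* was not among them. The H+/K+-ATPases had none of 3 genes at 1. *ATP4A* was at 0.00940 and 0.00714 FPKM, and *ATP4B* and *ATP12A* were listed at 0.

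**Figure D5:**
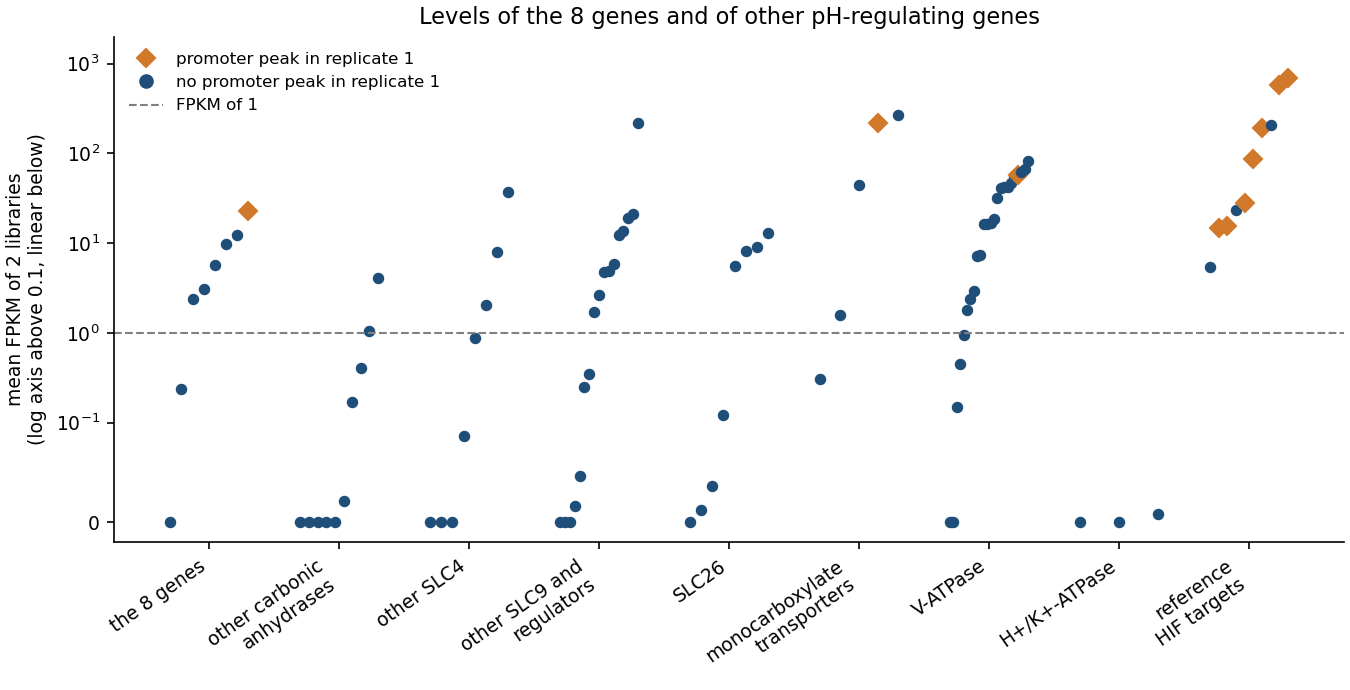
Mean FPKM of 2 libraries (vertical, logarithmic above 0.1) for the 8 genes, the 7 lists of other pH-regulating genes and the reference HIF targets, with genes ordered by level in each list. Diamonds mark a promoter peak in replicate 1, which *CA9*, *SLC16A3* and *ATP6V0D1* have among the pH-regulating genes, beside 7 of 10 reference targets.

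Of 10 reference HIF targets, all 10 reached a mean FPKM of 1, 7 had a promoter peak in replicate 1 and 6 of those 7 also in replicate 2, beside 5.49% and 1.79% of protein-coding genes. The highest were *LDHA* at 696 ± 0.485, *PGK1* at 580 ± 57.2 and *NDRG1* at 210 ± 0.987 FPKM. *ANKRD37*, *PDK1*, *SLC2A1*, *VEGFA*, *LDHA* and *PGK1* had the peak in both replicates and *KDM3A* in replicate 1. *CA9*, with a peak in replicate 1 and none in replicate 2, matched *KDM3A* in this, which was at 27.7 ± 2.75 FPKM beside 22.7 ± 3.62 for *CA9*.

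The labelled cell type was set against its markers. Of 9 proximal tubule markers, 2 had a mean FPKM of at least 1, *GGT1* at 60.4 and *SLC5A2* at 2.14. *CUBN*, *SLC34A1*, *AQP1* and *ANPEP* were under 0.1, and *LRP2*, *HNF4A* and *SLC22A6* were listed at 0, so 7 of the 9 were under 0.1 or listed at 0. The list summed to 65.1 FPKM in library 1 and 60.4 in library 2. Of 4 epithelial markers, *KRT8*, *KRT18* and *EPCAM* were at 164, 47.8 and 42.2 FPKM, and *CDH1* was at 0.295.

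Markers of other cell types were also read. None of 5 intercalated cell genes reached 1 FPKM, with *FOXI1* and *SLC4A1* listed at 0, *ATP6V1B1* at 0.448, *ATP6V0A4* at 0.149 and *SLC26A4* at 0.121. *UMOD*, *SLC12A1* and *AQP2* were listed at 0 and *SLC12A3* was at 0.0231. *PTPRC* was listed at 0 and *VWF* was at 0.00614, while *PECAM1* could not be matched between the annotations. Of the mesenchymal markers, *VIM* was at 1294 FPKM in library 1 and 802 in library 2, *COL1A1* at a mean of 38.7 and *COL3A1* at 0.562. This list of 3 summed to 1334 and 841 FPKM, and the part of that difference in other values was not tested. *HBB* and *CA1* were listed at 0, and *HBA1*, which has a near-identical copy, was at 6.60.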

How the data were processed

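Peak positions and transcript levels were used, all from libraries labelled as HK2 cells with FG-4592, grouped by assay and replicate. The authors aligned ChIP-seq reads to hg19 with Bowtie2 and called peaks with MACS2 for each replicate, and the deposited lists give positions without a score or depth. For RNA-seq the authors used HISAT2, with hg19 named in the methods, and StringTie 1.3.3 with GENCODE 27, whose positions in the tables are those of GRCh38. They deposited a coverage, an FPKM and a TPM for each transcript, with no read counts. The coverage and FPKM give 5527 and 5207 Mb of fragment bases.

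FPKM was summed per gene. Genes were joined by Ensembl identifier to GENCODE 44 on GRCh37, and no position was converted between builds. Start sites were those of all annotated transcripts. Distances run from the edge of a peak, and motifs were searched on both strands. Peaks on the mitochondrial chromosome and on contigs absent from the genome used were left out of motif shares. Ratios used a pseudocount of 1. Coverage shares of first exons were compared for genes with a coverage of at least 5 over the other exons. Nothing was tested, since all libraries share 1 condition. The functions were tested on simulated data. The members and lists were chosen with earlier results of these data known. Genes named were the 8 members, the 3 highest of each list, list genes with a promoter peak in replicate 1 or in both, all cell type markers, genes overlapping a member or nearest to a nearby peak, and transcripts with at least 10% of a member's mean level. The value of 1 list gene is not reported here. Alternatives covered the unit, the minimum, the transcripts, the pseudocount, the windows, the start sites, the overlap, the motif and each replicate left out. Python 3.11.15, numpy 2.4.6, matplotlib 3.10.9, pysam 0.24.0 and samtools 1.23.1 were used.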

Additional observations from a re-analysis of the deposited data

How the results depend on the processing

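The count of genes that reached a mean FPKM of 1 was 6, beside 59.7% of protein-coding genes. It was also 6 with TPM, with the largest transcript and with a minimum of 0.5, beside 64.9%, 56.3% and 63.3%. Without either RNA-seq replicate the count was again 6, beside 59.7% for each library alone. It was 4 with a minimum of 5 and 7 with any value above 0, beside 44.5% and 80.6% of protein-coding genes. The single gene with a replicate 1 promoter peak was found with every window and with the first start site only. With windows of 0.5, 3 and 10 kb, 5.07%, 6.22% and 8.12% of protein-coding genes had such a peak. In replicate 2 the count went from 0 to 3 genes with windows of 3 kb and of 10 kb, beside 22.9% and 37.7% of protein-coding genes, and the count in both replicates from 0 to 1 with each of these windows, beside 2.66% and 4.94%. Leaving out a ChIP-seq replicate gave 0 to 1. In the lists of pH regulation, the count of genes with a promoter peak in both replicates was 1, and 0, 2 and 3 with windows of 0.5, 3 and 10 kb, tried after seeing the data, beside 1.5%, 2.66% and 4.94% of protein-coding genes. With peaks without exon bases only, tried after seeing the data, the count of genes with a peak within 50 kb was 0 in place of 1 (replicate 1) and 1 in place of 4 (replicate 2), beside 6.47% and 9.24% of protein-coding genes. Of 17 replicate 2 peaks, those with the motif went from 11 to 7 within 100 bp of the centre and to 7 with ACGTG only, beside 26.6% and 29.3% of all replicate 2 peaks. The log2 ratio of the libraries for the main *CA9* transcript went from -0.28 to 0.14 without the first exon. The causes of these moves were not tested beyond the construction of each setting. For single genes, 22 alternatives moved a value by less than the spread between libraries and 14 by more, a shift of a rank by 1 or 2 places counted among the latter. Means without a library are not counted, since with 2 libraries their shift is always below the SD. Among mean levels the widest moves were to 2.42 FPKM for *SLC4A7*, 6.64 for *SLC4A4* and 2.02 for *CA12* with the largest transcript, and to 3.83 for *SLC4A7* with protein-coding transcripts only. No paired analysis was possible because no result comes from a test. The 2 libraries of each assay limit every error given, and the peak lists carry no depth.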
